A study of Mus musculus with 12 samples.

Results

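The genes of VEGF and angiopoietin signalling followed here in RNA-seq libraries of whole mouse hearts were 10: the ligands Vegfa, Vegfb and Vegfc, their receptors Kdr, Flt1 and Flt4, the angiopoietins Angpt1 and Angpt2, and the angiopoietin receptor Tek with its relative Tie1. They were chosen by symbol, and all of them were found among the 24062 gene symbols of the count table and passed the low-count filter in every comparison. The series holds 12 hearts in 4 groups of 3. At 2 months of age, WT hearts were set against KI/KI hearts, which carry the Lemd2 c.T38>G mutation on both alleles in every cell. At postnatal day 1 (P1), floxed hearts, with loxP sites around exon 1 of Lemd2 and no Cre, were set against cKO hearts, which carry the same floxed alleles and a Myh6-Cre transgene. This Cre is driven in cardiomyocytes, so that endothelial and other cells of the cKO heart keep Lemd2. LEMD2 is an inner nuclear membrane protein, and the study asked how its mutation or loss in cardiomyocytes affects the heart.

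VEGF ligands are secreted proteins that act on receptor tyrosine kinases of endothelial cells. Vegfa, made in the heart in large part by cardiomyocytes and induced by low oxygen, binds Kdr (VEGFR2), the main signalling receptor of angiogenesis, and Flt1 (VEGFR1), which binds it tightly but signals weakly and can act as a trap. Vegfb binds Flt1 and not Kdr, and Vegfc acts mainly through Flt4 (VEGFR3), best known from lymphatic vessels. Angpt1, made by cells around the endothelium and by the myocardium, activates Tek (Tie2) and favours quiescent, mature vessels, while Angpt2, made by endothelial cells, can oppose Angpt1 at the same receptor. Tie1 is a co-receptor of Tek with no well-established ligand of its own.

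Library totals ran from 37063669 to 44789753 counts. Levels below are CPM (counts scaled to the library size) after TMM scaling over the 12 hearts. Lemd2 itself lay between 31.9 and 34.7 CPM in the 3 WT hearts and between 24.8 and 25.6 CPM in the KI/KI hearts, a gap of -0.39 on the log2 scale that missed the threshold in edgeR (adjusted p = 0.181) and passed it in DESeq2 (adjusted p = 0.000385), with no overlap between the groups. It lay between 24.4 and 25.3 CPM in the floxed hearts and at 6.64, 13.1 and 11.3 CPM in cKO hearts 4, 5 and 6, a fall by 1.27 on the log2 scale (SE 0.22, adjusted p = 0.0142). The difference was -1.04 without cKO heart 4 (adjusted p = 0.0117), and the adjusted p was 0.0761 without floxed heart 1 and 0.0594 without floxed heart 2. The defining cardiomyocyte genes were abundant in every heart, with a sum over 10 markers of at least 36340 CPM. One heart stood apart: 4 Y-linked transcripts summed to 0.080 CPM in cKO heart 4 and to between 221.5 and 374.9 CPM in the other 11 hearts. Xist was at 616.8 CPM in cKO heart 4 and at 0.169 to 2.03 CPM in the others. That is the pattern of a female heart among male ones, though the labels do not give sex. The calls in the cKO group, and the values that move most, are therefore also given without cKO heart 4. WT heart 3 had the highest lung epithelial and adipocyte marker sums, at 102 and 84.4 CPM, against 0.824 and 3.72 CPM in WT heart 2. The share of such tissue in any result was not tested. In whole-heart RNA, fewer cells of a type and less RNA per cell cannot be told apart.

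To compare levels between genes, CPM was divided by the exonic length in kilobases (GENCODE annotation of GRCm38). On that scale Vegfb was the most abundant member in WT hearts, at 182.2 ± 14.6 CPM per kb (SD, n = 3), followed by Vegfa at 127.4 ± 19.9. Kdr came next at 51.9 ± 8.62 and overlapped the range of Angpt1, at 39.9 ± 8.63. Tie1, Tek and Flt1 lay close together at 26.3, 22.4 and 21.2 CPM per kb, and neighbours in that order overlapped. Flt4 at 6.45, Vegfc at 3.29 and Angpt2 at 1.72 CPM per kb were the lowest, each apart from the next. In floxed P1 hearts Vegfa was first, at 77.3 ± 15.6 CPM per kb, and its range overlapped that of Vegfb, at 68.1 ± 11.6. Kdr again came next, at 39.3 ± 1.04, and Tek, Angpt1 and Tie1 shared the next ranks with overlapping ranges at 30.8, 27.5 and 27.1. Angpt1 lay at 27.5 ± 4.62 CPM per kb in floxed hearts, above Flt1 at 8.26, but at 11.7 ± 2.39 in cKO hearts, where its range overlapped that of Flt1 at 10.7.

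The members lie on 7 chromosomes (GRCm38). Vegfa is on chromosome 17 (46016993 to 46032369), Vegfb on 19 (6982473 to 6987651), and Vegfc on 8 (54077606 to 54187096). Kdr (75932827 to 75978458) and Flt1 (147561604 to 147726011) share chromosome 5, and Flt4 is on 11 (49609263 to 49652739). Angpt1 is on 15 (42424723 to 42676977), Angpt2 on 8 (18690263 to 18741562), and Tek (94739289 to 94874976) and Tie1 (118471191 to 118490061) share chromosome 4. The 250 bases upstream of the RefSeq start are shown for Flt1 and Vegfb, the 2 members that differed by more than 2-fold between the ages, with each GGAA (or TTCC, its reverse complement), the core bound by ETS factors, in capitals. Neither window overlaps an annotated exon. They run 5′ to 3′ on the minus strand of GRCm38, at chr5:147726012-147726261 for Flt1 and chr19:6987652-6987901 for Vegfb.
Flt1: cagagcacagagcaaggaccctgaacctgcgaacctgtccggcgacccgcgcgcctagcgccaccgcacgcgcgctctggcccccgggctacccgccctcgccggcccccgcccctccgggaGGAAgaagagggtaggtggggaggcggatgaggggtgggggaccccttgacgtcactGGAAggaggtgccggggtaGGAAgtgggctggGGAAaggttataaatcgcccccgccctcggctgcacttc
Vegfb: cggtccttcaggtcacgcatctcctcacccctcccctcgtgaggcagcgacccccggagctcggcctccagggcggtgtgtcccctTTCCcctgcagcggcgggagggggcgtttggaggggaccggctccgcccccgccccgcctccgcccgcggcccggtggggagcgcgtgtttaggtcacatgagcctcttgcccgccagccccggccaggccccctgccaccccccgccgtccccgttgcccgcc
Flt1 holds 4 such cores and Vegfb 1. A match of this length is common: 93.4% of 32851 promoter windows of the same length hold GGAA on either strand, as did all 9 windows of the 8 members with a RefSeq promoter entry. ACGTG, the core of the hypoxia response element, was found on either strand in 16.6% of all windows and in 1 of these 9. That window (46025164 to 46025413) belongs to an internal start and lies inside the Vegfa gene. It was not checked for exons, so the match is not shown to be a regulatory site. Sequence farther upstream than 250 bases was not searched for any member.

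**Figure D1:**
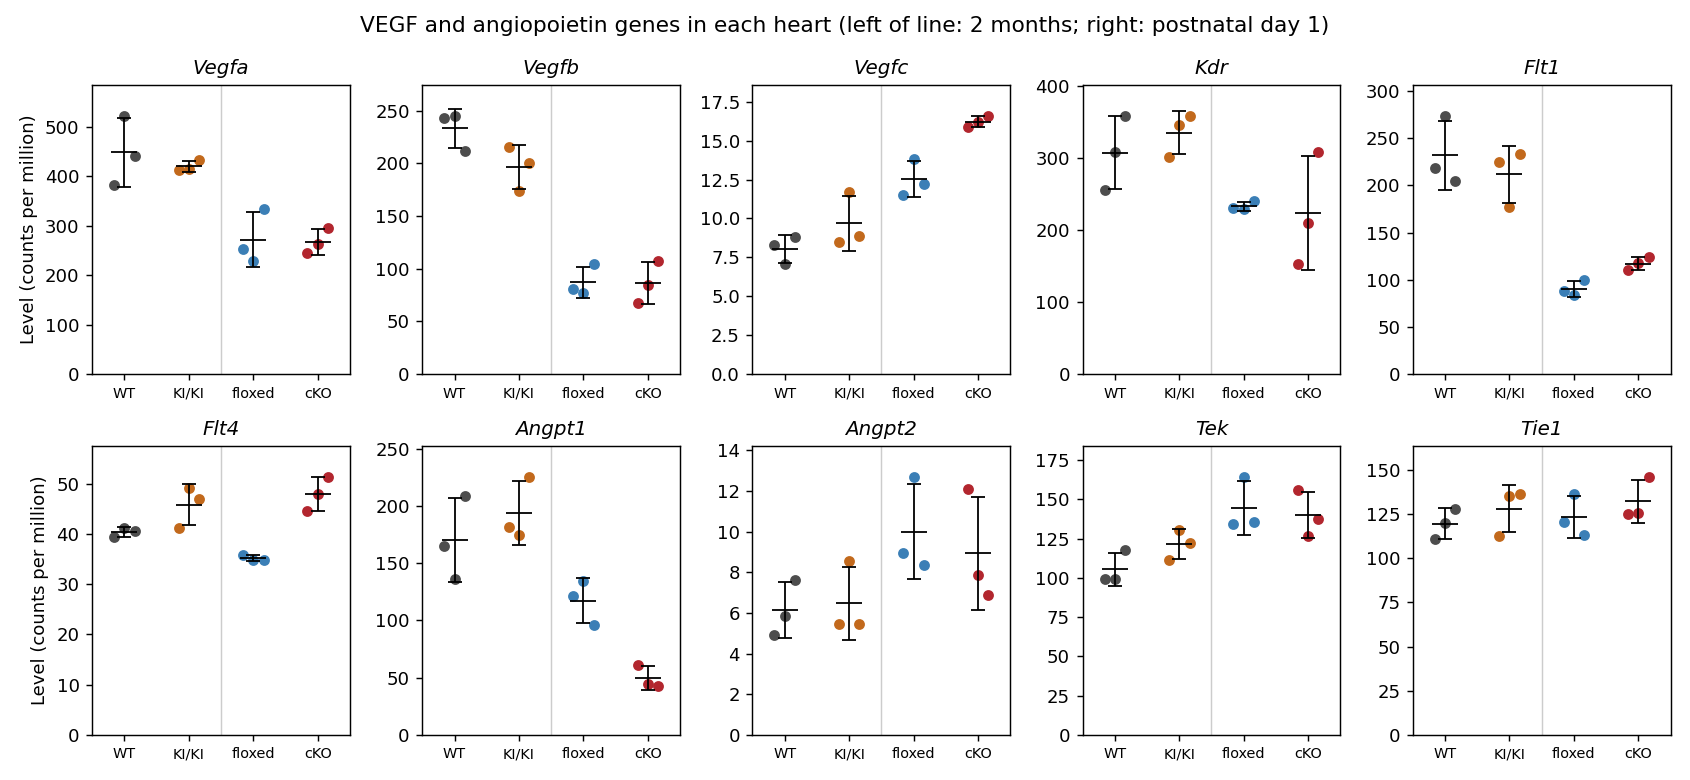
Level of each member in each heart, in CPM, for adult WT and KI/KI hearts (left of the grey line) and P1 floxed and cKO hearts (right). Points are hearts, and bars are the mean with 1 SD (n = 3). Angpt1 is lower in all 3 cKO hearts, at 43.0 to 61.4 CPM, than in all 3 floxed hearts, at 95.7 to 134.3 CPM.

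Loss of Lemd2 in cardiomyocytes was addressed by the P1 comparison of cKO with floxed hearts. The series has no group with Cre alone, so the Cre transgene and the loss of Lemd2 cannot be told apart. Angpt1 was 2.35-fold lower in cKO hearts, the VEGF receptors Flt4 and Flt1 were 1.36-fold and 1.29-fold higher, and the main ligand Vegfa and the receptors Kdr, Tek and Tie1 did not pass the test. Thus 3 of the 10 members were called at an adjusted p below 0.05 (edgeR's quasi-likelihood test), against 16.9% of the 15317 genes tested, with 2 higher (9.32% of genes) and 1 lower (7.57%). Only Angpt1 also exceeded 2-fold, as did 4.64% of genes.

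Angpt1, the activating ligand of Tek, measured 121.3, 134.3 and 95.7 CPM in the 3 floxed hearts, against 61.4, 44.7 and 43.0 CPM in cKO hearts 4, 5 and 6. The groups did not overlap, as was the case for 39.3% of genes. Angpt1 fell by 1.23 on the log2 scale (SE 0.19, adjusted p = 0.0101), that is 2.35-fold. Cardiac myocytes are one source of Angpt1, and the summed level of 10 cardiomyocyte markers was also lower in cKO hearts, at 36340 to 42050 CPM against 47470 to 54390 CPM. Relative to that sum, a denominator chosen after seeing the data, Angpt1 was lower in every cKO heart. The mean log2 difference was -0.87 (exact permutation test, p = 0.1, the smallest that 3 against 3 hearts allow). Of the 10 markers 8 had a negative and 2 a positive fold change. Pln had means of 4112 CPM in floxed and 1930 CPM in cKO hearts, and Actn2 of 2080 and 2602 CPM. The part of cardiomyocyte content in the fall of Angpt1 was not tested. Without cKO heart 4, which had the highest Angpt1 level of the cKO hearts, the log2 fold change was -1.43 (adjusted p = 0.0117). The adjusted p rose to 0.0599 without floxed heart 1, with a fold change of -1.22, and to 0.0510 without cKO heart 5, with a fold change of -1.15.

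Angpt2, the ligand that can oppose Angpt1, was the least abundant member in both P1 groups. Its floxed levels were 8.98, 12.7 and 8.34 CPM, and its cKO levels were 12.1, 7.86 and 6.87 CPM. The groups overlapped, with cKO heart 4 near the top of the floxed range and the other two cKO hearts below it, and the log2 fold change was -0.15 (95% interval -0.78 to 0.47, adjusted p = 0.711), or -0.45 without cKO heart 4 (adjusted p = 0.197). Tek, the receptor of both, ranged from 134.2 to 164.5 CPM in floxed and from 126.8 to 155.7 CPM in cKO hearts (log2 fold change -0.05, interval -0.33 to 0.24), and its fold change was -0.14 without cKO heart 4. Tie1 differed by 0.10 (interval -0.13 to 0.33). For both receptors the group difference was smaller than the spread between hearts of a group.

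Among the VEGF receptors, Flt4 measured 35.9, 34.8 and 34.9 CPM without Cre and 44.6, 47.9 and 51.4 CPM with it. Every cKO heart lay above every floxed heart, and Flt4 rose by 0.45 on the log2 scale (SE 0.08, adjusted p = 0.0144). Flt1 measured 88.0, 83.5 and 100.2 CPM in the floxed group, and 110.0, 117.8 and 123.8 CPM in the cKO group, again without overlap, and rose by 0.37 (SE 0.09, adjusted p = 0.0332). Without cKO heart 4 the same 3 members were called, with fold changes of 0.49 for Flt4 (adjusted p = 0.0228) and 0.40 for Flt1 (adjusted p = 0.0467). The adjusted p of Flt4 passed 0.05 without floxed heart 1 (0.082), floxed heart 2 (0.0649) or cKO heart 5 (0.0659). That of Flt1 did so without floxed heart 1 (0.153), floxed heart 2 (0.119), cKO heart 5 (0.113) or cKO heart 6 (0.0522), and when all 12 libraries shared a fit (0.0551).

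Kdr, the main signalling receptor, was level in the floxed hearts, at 230.3, 228.5 and 239.9 CPM, and spread in the cKO hearts, at 152.3, 209.3 and 308.3 CPM. Hearts 4 and 5 lay below the floxed range and heart 6 above it. The log2 fold change was -0.07 (SE 0.22, interval -0.59 to 0.45), and it was 0.14 without cKO heart 4. Several marker sums ran in the same or the opposite order over the 3 cKO hearts: from heart 4 to heart 6, pericyte markers were at 665.4, 849.1 and 1148 CPM, endocardial markers at 792.6, 605.5 and 431.9 CPM, and macrophage markers at 233.6, 153.7 and 117.5 CPM. Abcc9 alone held 227.4 to 457.3 CPM of the pericyte sum in cKO hearts. The part of these sums in the spread of Kdr was not tested.

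No VEGF ligand passed the test. Vegfc, the Flt4 ligand, measured 11.5, 13.8 and 12.2 CPM in the floxed group and 15.9, 16.2 and 16.6 CPM in the cKO group. These groups did not overlap, and its log2 fold change of 0.37 (SE 0.10) missed the threshold at an adjusted p of 0.0515 (DESeq2 adjusted p = 0.0186). It was 0.38 without cKO heart 4 (adjusted p = 0.0937). The floxed hearts held Vegfa at 252.3, 229.9 and 334.5 CPM, the cKO hearts at 244.4, 262.6 and 294.8 CPM, so that the cKO values fell inside the floxed range (log2 fold change -0.03, interval -0.37 to 0.32). Vegfb differed by -0.02 (interval -0.44 to 0.40), and by 0.12 without cKO heart 4.

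**Figure D2:**
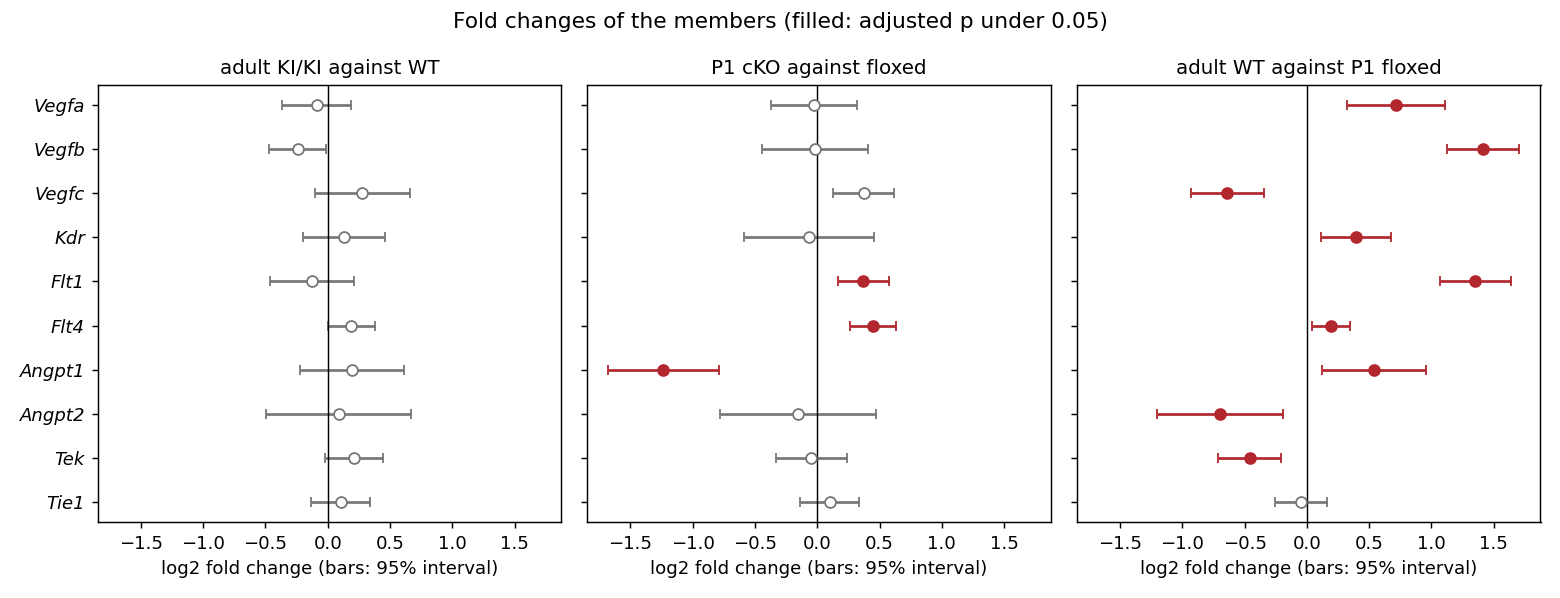
Log2 fold change of each member in the 3 comparisons, with 95% intervals (n = 3 hearts a group, edgeR); filled red points passed an adjusted p of 0.05. No member is filled in the adult KI/KI comparison, 3 are filled in the P1 cKO comparison, with Angpt1 at -1.23, and 9 are filled between the ages.

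Ratios taken within a heart do not depend on library scaling. Angpt2 counts made up 7.40%, 9.46% and 8.72% of Angpt1 counts in the floxed group, against 19.7%, 17.6% and 16.0% in cKO hearts 4, 5 and 6. The ratio was higher in every cKO heart, 2.09-fold on average (mean log2 difference 1.06, exact permutation test, p = 0.1, adjusted over 12 ratio tests 0.24), and by 0.98 without cKO heart 4. The log2 fold changes behind it were -0.15 for Angpt2 and -1.23 for Angpt1. Flt1 counts made up 38.2%, 36.5% and 41.8% of Kdr counts in the floxed group, against 72.3%, 56.3% and 40.2% in the cKO group, where heart 6 fell inside the floxed range (exact p = 0.2). The mean log2 difference of Flt1 to Kdr was 0.29 without heart 4. The ratios of Tie1 to Tek and of Vegfa to Vegfb also overlapped between the P1 groups, with mean log2 differences of 0.15 and 0.02. With cKO heart 4 left out these were 0.27, with no overlap left for Tie1 to Tek, and -0.09. At these group sizes no exact test could reach 0.05.

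**Figure D3:**
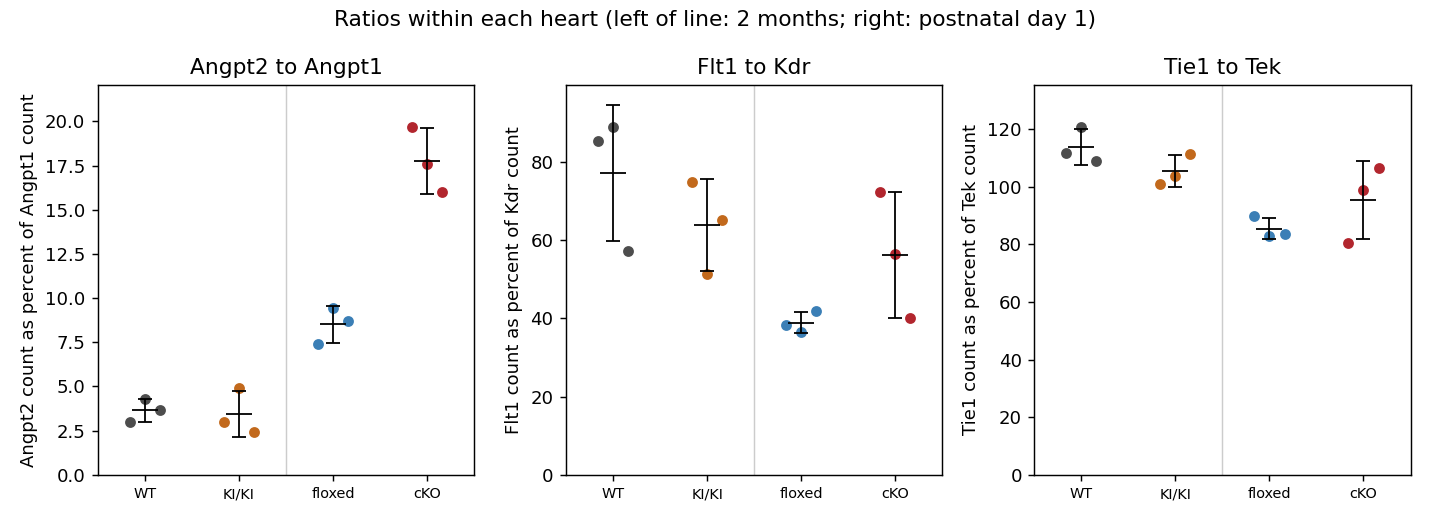
Angpt2 as a percent of Angpt1, Flt1 as a percent of Kdr and Tie1 as a percent of Tek (counts within each heart), by group. Points are hearts, and bars are the mean with 1 SD (n = 3). The Angpt2 to Angpt1 ratio is 16.0% to 19.7% in cKO hearts and 7.40% to 9.46% in floxed hearts.

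The receptors and Angpt2 are made mainly in endothelial cells, so their levels were also set against the sum of 20 endothelial markers that are not members. That sum was 1726 to 1897 CPM in floxed and 2246 to 2470 CPM in cKO hearts, with no overlap. Of the 20 markers, 19 had a positive fold change, with a median of 0.17, and 4 were called higher (9.32% of all genes). These were Ecscr (0.46), Pecam1 (0.34), Eng (0.93) and Emcn (1.30), none of which passed the test without cKO heart 4 (adjusted p from 0.0523 to 0.0865). Eng had means of 207.8 CPM in floxed and 394.6 CPM in cKO hearts and Emcn of 64.1 and 156.9 CPM, so these 2 genes weigh on the rise of the sum. Relative to the marker sum, Flt1 and Flt4 differed between the P1 groups by mean log2 values of -0.01 and 0.07, with overlapping groups, and Vegfc by -0.00. With the geometric mean of the same markers in place of their sum, Flt4 was higher in every cKO heart, by 0.18 (exact permutation test, p = 0.1), and Flt1 and Vegfc differed by 0.11 each with overlapping groups. Without cKO heart 4, Flt4 was also above every floxed heart relative to the sum, by a mean of 0.12. Kdr, at 13.4%, 12.5% and 12.7% of the marker sum in floxed hearts, was at 6.43%, 9.32% and 12.5% in cKO hearts. It was lower in every cKO heart, by a mean log2 difference of -0.50 (exact permutation test, p = 0.1, adjusted over 30 tests 0.25), with heart 6 just below the floxed hearts, and by -0.25 without cKO heart 4. Tek (-0.43) and Tie1 (-0.28) were lower in every cKO heart on this scale too. Against the geometric mean, Kdr, Tek and Tie1 differed by -0.39, -0.31 and -0.16 and their exact p rose to 0.2, 0.2 and 0.3. Angpt1, which is not an endothelial gene, was lower by -1.62 against the sum.

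**Figure D4:**
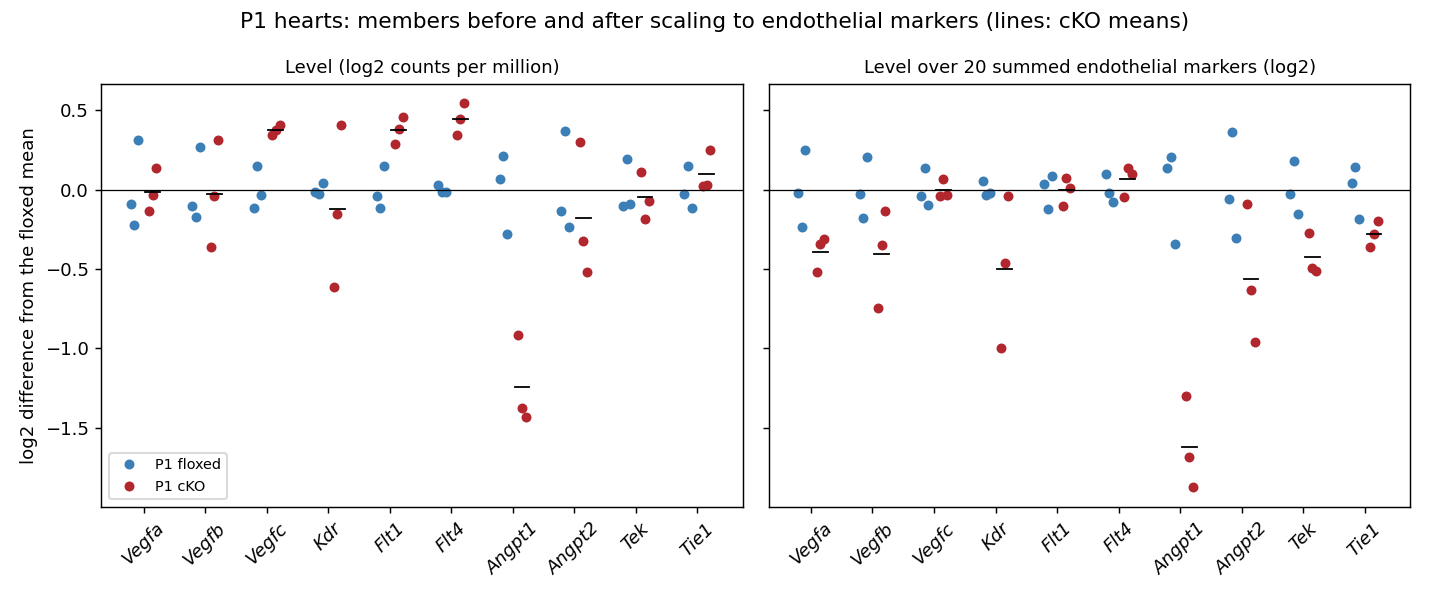
Members in P1 floxed (blue) and cKO (red) hearts as log2 differences from the floxed mean, in CPM (left) and relative to the sum of 20 endothelial markers (right). Points are hearts and lines the cKO means (n = 3). Flt4 and Flt1 lie above the floxed hearts on the left and overlap them on the right, while Angpt1 lies below them on both sides.

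Marker sums of other cell types also differed between the P1 groups. Fibroblast markers summed to 5242 to 5842 CPM in floxed and 7030 to 7764 CPM in cKO hearts, with 3 of 8 called higher. Most of that sum came from the matrix genes Col3a1, Postn and Col1a1. Their means were 2516, 1281 and 1033 CPM in floxed and 2930, 2220 and 1523 CPM in cKO hearts. Fold changes were positive for 5 of the 8 and negative for 3. Means of Dcn (290 and 263.3 CPM), Lum (116.5 and 104.3 CPM) and Pdgfra (90.97 and 81.44 CPM) were lower in cKO hearts. Macrophage markers summed to 100.5 to 115.2 and 117.5 to 233.6 CPM, with 4 of 8 called higher. Of 10 cardiomyocyte markers 4 were called lower and 0 higher. Over all genes, 9.32% were called higher and 7.57% lower. Pericytes are a source of Angpt1. Their 10 markers overlapped in sum between the groups, at 923.8 to 1029 CPM in floxed and 665.4 to 1148 CPM in cKO hearts. Abcc9 was the largest part of that sum, with means of 556.8 CPM in floxed and 320.5 CPM in cKO hearts. Fold changes were positive for 7 of the 10 and negative for 3, so the sum alone does not give pericyte content. The 3 pericyte markers called higher were Cspg4, Pdgfrb and Notch3. Of 7 lymphatic endothelial markers tested, 1 was called higher (Foxc2) and 1 lower (Prox1, also made by cardiomyocytes), and of 6 endocardial markers 1 was called higher (Nfatc1). Adipocyte and thymocyte markers were each below 1.5 CPM in sum in every P1 heart. Lung epithelial markers summed to 2.76 to 49.45 CPM in floxed and 3.775 to 23.35 CPM in cKO hearts. Without cKO heart 4, the fibroblast, macrophage and pericyte lists had 2, 4 and 3 markers called higher, the cardiomyocyte list had 2 called lower, and Foxc2 was not called (adjusted p = 0.0537). How far these shifts take part in the members' values was not tested.

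Of 18 other genes of the pathway, which were chosen with earlier results of these data known, 16 were tested at P1. Here 4 were called higher (9.32% of all genes) and 1 lower (7.57%). Their median log2 fold change was 0.33, against -0.00 over all genes. Shb, an adaptor of the VEGF receptor, rose by 0.83 (adjusted p = 0.00654). The integrin subunits Itga5 (0.81) and Itgb1 (0.63), which form the fibronectin receptor, rose as well. Thbs1, an inhibitor of angiogenesis, was also called higher (2.08, SE 0.42), and Grb14, an adaptor that binds Tek and the insulin receptor, fell by 0.82. The remaining ligands Pgf (0.97, SE 0.38) and Figf, the VEGF-D gene (0.43, SE 0.17), the co-receptors Nrp1 (0.36) and Nrp2 (-0.01), and Ptprb, the phosphatase that restrains Tek (0.11), did not pass. Pgf was at 0.61 and Nrp2 at 0.24 without cKO heart 4, and neither passed. These counts were again 4 higher and 1 lower without cKO heart 4, with a median of 0.25.

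Among 16 genes induced by VEGF or found in tip cells, 15 had a positive fold change at P1. Of these genes 5 were called higher and 0 lower, with a median of 0.62. Over all genes, 9.32% were called higher and 7.57% lower, with a median of -0.00. This list and the hypoxia list below were also chosen with earlier results of these data known. Egr3, an early response gene, rose by 2.55 (SE 0.23, adjusted p = 0.00481), Rcan1, a target of calcineurin signalling, by 1.13, the guidance receptor Unc5b by 1.39, and Mcam, an adhesion molecule of endothelium and pericytes, by 0.75. The tip cell genes Dll4 (0.34), Esm1 (1.08) and Apln (0.70) did not pass. Without cKO heart 4, 4 of the 16 were called higher, and Nr4a1, an early response gene, missed the threshold at 1.01 (adjusted p = 0.0645), against 1.20 with it. Dll4 and Apln were then at 0.55 and 1.14, and neither passed. Early response genes such as Egr3 are made by many cell types of the heart. Of 20 targets of the hypoxia-inducible factors, which also act on Vegfa, 5 were called higher (9.32% of all genes) and 0 lower, with a median of 0.21. These were P4ha1 (1.04), a collagen prolyl hydroxylase, its relative P4ha2 (0.51), the glycolytic enzymes Ldha (0.61) and Pgk1 (0.47), and Car9 (1.16), a carbonic anhydrase. Without cKO heart 4 P4ha1 (1.02) and Ldha (0.66) passed, while P4ha2 (0.43), Car9 (1.06) and Pgk1 (0.45) had adjusted p from 0.0609 to 0.0645. DESeq2, with all 6 hearts, called 7 targets higher and 1 lower. Other targets such as Adm (-0.06, or -0.39 without cKO heart 4), Egln3 (0.02) and Ndrg1 (-0.03) did not pass. Of the 8 factors and regulators edgeR called none, and Hif1a had a fold change of 0.50 (edgeR adjusted p = 0.067, DESeq2 adjusted p = 0.0229).

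In adult hearts, KI/KI was compared with WT to ask what the point mutation changes. No member was called (0 of 10), nor was any of the 14592 genes tested (0%) by edgeR, while DESeq2 called 518 genes (3.54%) and none of the members. At an unadjusted p below 0.05 stood 2 members, Vegfb and Flt4, against 16.2% of genes. Vegfb was at 243.3, 245.1 and 211.8 CPM in WT hearts and 215.5, 173.7 and 200.5 CPM in KI/KI hearts (log2 fold change -0.24, SE 0.10, adjusted p = 0.297). One KI/KI heart lay inside the WT range and the other two below it. Flt4 was at 39.4, 41.2 and 40.5 CPM in WT and 41.3, 49.1 and 47.0 CPM in KI/KI hearts (0.19, SE 0.08, adjusted p = 0.307). It was the only member whose groups did not overlap, as 22% of genes did not, and the nearest hearts of the 2 groups were almost level.

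The remaining members overlapped between WT and KI/KI hearts. Angpt1 was at 164.8, 136.0 and 209.0 CPM in WT and 181.9, 174.2 and 225.6 CPM in KI/KI hearts, a log2 fold change of 0.20 (interval -0.22 to 0.61). The interval at P1 was -1.68 to -0.79. Vegfa differed by -0.09 (interval -0.36 to 0.19), Kdr by 0.13 (-0.20 to 0.46), Flt1 by -0.12 (-0.46 to 0.21), Tek by 0.21 (-0.02 to 0.44, adjusted p = 0.342) and Tie1 by 0.10 (-0.13 to 0.34). The low-count genes Vegfc (0.28) and Angpt2 (0.09) had intervals of -0.10 to 0.66 and -0.50 to 0.67. Angpt2 was 2.41% to 4.90% of Angpt1 counts in KI/KI and 2.98% to 4.31% in WT hearts. Endothelial marker sums overlapped, at 1770 to 1954 CPM in WT and 1860 to 2287 CPM in KI/KI hearts, as did those of pericytes, endocardium and cardiomyocytes, though all 10 cardiomyocyte markers had a negative fold change. Sums that did not overlap were those of fibroblast (1818 to 2201 CPM in WT, 2206 to 4153 in KI/KI), macrophage (208.3 to 305 and 314.7 to 336.9 CPM) and lymphatic endothelial markers (158.9 to 166.8 and 173 to 198.8 CPM). Their part in the members' values was not tested. Of the pathway, VEGF response and hypoxia lists edgeR called no gene in either direction. DESeq2 called none of the other pathway genes, but Rcan1 (adjusted p = 0.00503), Egr3 (0.0325), P4ha1 (0.0377) and Hif1a (0.039) higher and Hif3a (0.0401) lower. The genes with the smallest edgeR p were Figf (0.66, adjusted p = 0.245) and Stab2 (-0.63, adjusted p = 0.282), Rcan1 (0.84, adjusted p = 0.217) and Esm1 (1.56, adjusted p = 0.255), P4ha1 (0.40, adjusted p = 0.231) and Hk2 (-0.39, adjusted p = 0.305), and Hif1a (0.58, adjusted p = 0.24) and Hif3a (-1.60, adjusted p = 0.265).

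The difference between the genotype effects (cKO against floxed minus KI/KI against WT) was tested in one edgeR fit of the 12 hearts, in which 2.43% of 15729 genes were called. Angpt1 was the only member called, with a difference of -1.43 on the log2 scale (SE 0.27, adjusted p = 0.0293), and -1.61 without cKO heart 4 (adjusted p = 0.0227). The call was lost, with adjusted p from 0.0566 to 0.0954, when any 1 of 7 hearts was left out (WT 1 or 2, KI/KI 4 or 6, floxed 1 or 2, or cKO 5), while the difference stayed between -1.61 and -1.29. For Flt1 the difference was 0.50 (SE 0.18, adjusted p = 0.157) and for Flt4 0.26 (SE 0.11, adjusted p = 0.215), so a difference between the models was not shown for them. The models differ in age, allele, the Cre transgene and the cells affected, which cannot be told apart here.

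Adult WT hearts were finally set against P1 floxed hearts, the control groups of the other comparisons. Age, mouse line and the set of libraries change together between them and cannot be told apart. Here 9 of 10 members were called, against 65.2% of the 15183 genes tested, 6 of them higher in adults (31.8% of genes) and 3 lower (33.4%). Vegfb and Flt1, a ligand and its receptor, had the largest differences and were the only members above 2-fold, as were 27.2% of genes. Vegfb was at 80.6, 76.9 and 104.2 CPM in the P1 hearts and between 211.8 and 245.1 CPM in the adult hearts, and was 2.66-fold higher (log2 1.41, SE 0.13, adjusted p = 3.55e-05). Flt1 went from 83.5 to 100.2 CPM at P1 to 204.7, 218.2 and 273.7 CPM in adults, 2.55-fold higher (log2 1.35, SE 0.12, adjusted p = 3.89e-05). Neither gene overlapped between the ages, as 70.9% of genes did not, and their promoters, shown above, share no motif searched beyond the common GGAA core.

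The other ligands moved in both directions. Vegfa was at 229.9 to 334.5 CPM at P1 and 382.6 to 522.5 CPM in adults (0.72, SE 0.17, adjusted p = 0.00632), and its counts were 299% to 321% of those of Vegfb at P1 and 157% to 213% in adult WT hearts. Vegfc was lower in adults (-0.64, SE 0.13, adjusted p = 0.00259), at 7.08 to 8.81 CPM. Angpt1 was higher (0.54, SE 0.18, adjusted p = 0.0305) and Angpt2 lower (-0.70, SE 0.22, adjusted p = 0.0221). Angpt2 therefore made up 2.98% to 4.31% of Angpt1 in adult WT hearts, against 7.40% to 9.46% in P1 floxed hearts. This 2.35-fold lower ratio had an exact permutation p of 0.1.

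Of the receptors, Kdr (0.40, adjusted p = 0.0202) and Flt4 (0.19, adjusted p = 0.0293) were higher in adults, Tek was lower (-0.46, adjusted p = 0.00591), and Tie1 was near level (-0.05, interval -0.26 to 0.16). Flt1 counts were 57.2% to 88.9% of Kdr counts in adults and 36.5% to 41.8% at P1, and Tie1 counts 109% to 121% of Tek counts in adults and 82.9% to 89.7% at P1, both without overlap. The endothelial marker sums of these groups were close, at 1770 to 1954 and 1726 to 1897 CPM. Relative to that sum, Flt1 (1.31), Vegfb (1.39) and Kdr (0.35) remained higher and Tek (-0.49) lower in every adult heart. Cardiomyocyte markers summed to 88770 to 101200 CPM in adults, above the floxed range. Relative to that sum, again a denominator chosen after seeing the data, Angpt1 was lower, not higher, in adults (-0.39, exact permutation p = 0.2). Some calls did not hold when 1 heart was left out: that of Flt4 without WT 1, 2 or 3 or floxed 1 or 2 (adjusted p from 0.0514 to 0.0903), that of Angpt1 without WT 1 or 3 or floxed 1 or 3 (0.054 to 0.0849), that of Angpt2 without WT 1 or 2 or floxed 2 (0.0598 to 0.0678), and that of Kdr without floxed 1 or 2 (0.0652 and 0.0626). Of 16 genes tested in the wider pathway, 7 were called higher (31.8% of all genes) and 3 lower (33.4%). Among them were Ptprb (1.58) and Thbs1 (-2.31). Beside the same shares of all genes, 4 of the 8 hypoxia-inducible factors and regulators were called higher and 4 lower. The higher ones were led by Egln1 (2.16) and Epas1 (1.92), the factor of endothelium, and the lower ones included Hif1a (-0.91).

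As a description of which other genes followed the members over the 12 hearts, the centred log2 CPM of each of 15719 genes was compared with that of 4 members by the root-mean-square difference. The nearest to Vegfa were 3110040N11Rik (0.094), Dnajc27 (0.099) and Alpk3 (0.104), a kinase of muscle. Nearest to Kdr were Tspan15 (0.126), Pcdh1 (0.129) and Mgll (0.135), and to Angpt2 Tspan8 (0.122), Evpl (0.148) and Lsr (0.149). For Angpt1, Sesn3 (0.203), Cyb5r2 (0.232) and Dedd2 (0.251) came first. The SD of the member itself over the hearts was 0.79 for Angpt1, 0.38 for Vegfa, 0.35 for Kdr and 0.40 for Angpt2. The difference depends on this spread, so its size is not compared between members. The 12 points share ages and genotypes, and no p is given.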

How the data were processed

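Poly(A) RNA of 12 whole mouse hearts was sequenced single-end. Per the labels and the study's methods, the authors used Trim Galore for adapters, STAR 2.7.2b for alignment (build mm10), SAMtools 1.9 and HTSeq (Bowtie2 2.3.4.3 is listed too), and deposited raw counts per gene, not normalized. The strand setting is not given in the sources used here, so reads of overlapping antisense genes cannot be told apart. Groups came from the sample labels. Nothing says whether hearts share a litter.

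Here counts were tested with edgeR 4.0.16 (R 4.3.3): TMM scaling, filterByExpr, robust quasi-likelihood fits on the 6 libraries of each comparison, Benjamini-Hochberg adjustment over all genes tested, and calls at an adjusted p below 0.05. The script was tested on simulated data. DESeq2 1.42.0 and limma 3.58.1 were alternatives, with other filters, scalings and left-out hearts. Ratios were tested by two-sided exact permutation. SEs and intervals (95%) are on the log2 scale. The members and the 14 gene lists were chosen with earlier results of these data known. Genes named from a list were at most 4 per comparison by smallest p, or 2 where none passed; others named were picked by role or after their values were seen. Promoters are RefSeq sequences on GRCm38. Proteins were not used here.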

Additional observations from a re-analysis of the deposited data

Results flagged for a closer look

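The effect of genotype was compared between the 2 models by a test of the difference itself in one edgeR fit of the 12 hearts. Of the members and list genes named in the text 3 were called, beside 2.43% of all 15729 genes. For Angpt1 the cKO effect minus the KI/KI effect was -1.43 on the log2 scale (SE 0.27, adjusted p = 0.0293): Angpt1 was lower in 3 of 3 cKO hearts than in any floxed heart, and the KI/KI and WT hearts overlapped. For Ldha it was 0.78 (SE 0.17, adjusted p = 0.0419), and for Prox1 -1.09 (SE 0.15, adjusted p = 0.0114). The Angpt1 call held in 8 of 16 alternative settings, left-out hearts among them. Left-out hearts were not examined for Ldha and Prox1 in this test, and with the replicate block no gene was called. These tests share no control samples between the 2 effects, but age, allele, the Cre transgene and affected cells differ together.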

How the results depend on the processing

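At P1, the fall of Angpt1 and the rise of Flt4 stayed called in edgeR, DESeq2 and limma-voom and under every other scaling, filter and dispersion tried, and calls moved mainly with left-out hearts. Members called higher there came to 1 with all 12 libraries in one fit, to 1 with Y-linked transcripts as a covariate and to 0 when a fold change above 2 was also required. The last rule left 2 members higher and 0 lower in adult WT against P1 floxed hearts. The Y-linked covariate turned the P1 values of Vegfa to 0.025, Vegfb to 0.14 and Kdr to 0.17. The geometric mean of the endothelial markers turned Vegfc (0.11) and Flt1 (0.11) at P1 and Kdr (0.021) in KI/KI hearts, and cardiomyocyte markers as the denominator, chosen after seeing the data, turned Angpt1 between the ages (-0.39); the cause was not tested.

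With 1 heart left out, members called ranged from 0 to 2 higher and from 0 to 1 lower in cKO hearts (without floxed heart 1, 86 genes in all were called higher and 74 lower), from 3 (without floxed heart 1) to 5 higher in adult WT against P1 floxed hearts, and from 0 to 1 lower in the difference between the models. Values that changed sign, none of them called, ranged in KI/KI hearts from -0.19 to 0.032 (Vegfa), -0.20 to 0.0067 (Flt1) and -0.18 to 0.29 (Angpt2). In cKO hearts they ranged from -0.15 to 0.14 (Vegfa), -0.20 to 0.13 (Vegfb), -0.37 to 0.14 (Kdr), -0.45 to 0.042 (Angpt2) and -0.14 to 0.043 (Tek), and between the ages from -0.092 to 0.023 (Tie1). In the difference between the models they ranged from -0.056 to 0.24 (Vegfa), -0.49 to 0.030 (Kdr), -0.52 to 0.029 (Angpt2) and -0.080 to 0.080 (Tie1). The log2 ratio of Angpt2 to Angpt1 ranged from -0.42 to 0.087 in KI/KI hearts and that of Vegfa to Vegfb from -0.086 to 0.11 in cKO hearts.

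The labels do not say what samples with the same number share. The correlations of their deviations ran from -0.431 to -0.157 between WT and floxed hearts and from 0.065 to 0.182 between KI/KI and cKO hearts. In these pairs of groups 0 of 6 and 4 of 6 samples correlated best with their own number. Whether equal numbers mark a shared handling step cannot be told from these values. The replicate block gave 4 members higher and 3 lower between the ages, and 0 members and 0 genes called in the difference between the models. Counts were lowest for Angpt2 and Vegfc, at 153 to 789 per heart. With 3 hearts a group, p-values measure the spread between these hearts only.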
